A study of Flaveria bidentis and Flaveria robusta with 100 samples.

Results

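In 22 genes of the deposited table the leaf transcript level was highest 20 h after lights on (zeitgeber time 20, ZT20) in both Flaveria bidentis, a C4 plant, and Flaveria robusta, a C3 plant. They were chosen from 21869 listed Arabidopsis identifiers, of which 10467 averaged at least 5 RPM (the authors' read counts scaled to equal library totals) over all time points. For each species the levels of the 2 days with light and dark were averaged hour by hour, and a gene was kept where the highest hour exceeded the lowest at least 4-fold, with 1 RPM added to each, and was ZT20 in both species. The light and dark values therefore chose the genes and are given as a description. Of the 460 genes past the ratio in both species, 91 were highest at ZT00 in both, 16 at ZT04, 53 at ZT08, 87 at ZT12 and 16 at ZT16.

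Plants of both species spent 36 days in a greenhouse and 6 days in a chamber, where the daily cycle had 10 h of light (22 °C) and 14 h of darkness (20 °C). Mature leaves were taken every 4 h through 2 such days (LD1 and LD2) and then through 2 days of constant light (LL1 and LL2), ending at ZT00 of the day after (LL3). Each species has 25 time points with 2 biological replicates per the labels, and the values are the authors' means over the replicates, so no spread between plants is given here. LL1 follows the last dark period and its ZT00 to ZT08 fall in ordinary daytime, so ZT12 is its first hour lit in place of dark. Constant light always came after light and dark, so regime and plant age cannot be told apart.

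Through the night a leaf draws down its starch and exports sucrose, until the next dawn. Beta-amylases release maltose from starch in the plastid, and sucrose-phosphate synthases make the precursor of sucrose in the cytosol. NPH3 family proteins act beside the blue light receptors called phototropins in Arabidopsis, where plants bend and position their leaves and chloroplasts toward light. Circadian clocks time many such genes ahead of dawn, and constant light shows how much of a daily pattern persists without a dark period.

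The hour in the label depends on the scaling. With the deposited RPM all 22 genes were highest at ZT20, but ZT00 was the second highest hour in 14 F. bidentis and 15 F. robusta profiles. The median ratio of ZT20 to ZT00 was 1.31 in F. bidentis and 1.20 in F. robusta. With TMM factors (trimmed mean of M values), which scale each time point by its bulk of genes, the peak was at ZT20 in 11 genes and at ZT00 in 11 in F. bidentis, and at ZT20 in 7 and ZT00 in 15 in F. robusta. Only 3 genes still met the whole rule, namely AT1G23200, PME38 and AT3G29240. The 20 most abundant genes of each time point held 17.4 to 18.3% of all RPM at ZT20 and 22.3 to 24.0% at ZT00 in F. bidentis, and 17.3 to 19.7% at ZT20 and 23.6 to 25.4% at ZT00 in F. robusta. The part of that shift in the peak hour was not tested. On the average of LD1 and LD2 the 22 genes thus peak at ZT20 or ZT00 in both species. Which of ZT20 and ZT00 is the higher is set by the scaling for most of them. For AT5G22860 in F. robusta the peak rests on LD1 alone. Its ZT20 level was 101.5 RPM on LD1 and 10.0 RPM on LD2, when ZT12 was its highest hour, and ZT00 had 12.0 RPM on each day.

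**Figure D1:**
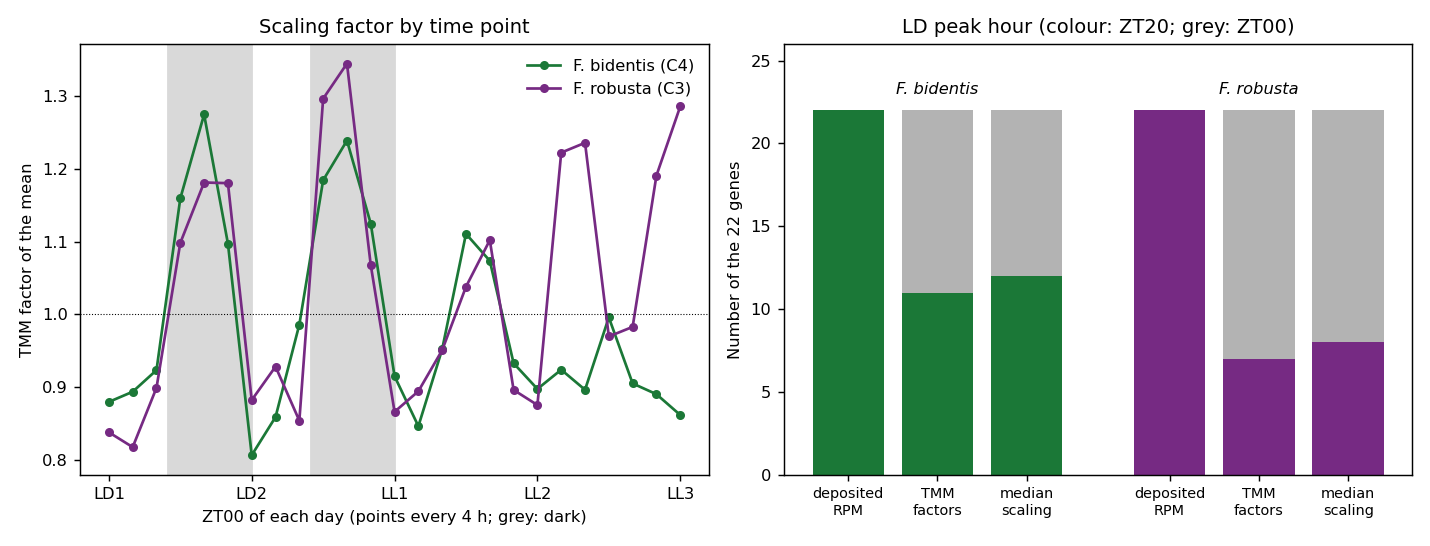
TMM factor of each of the 25 time-point means in both species (left; grey bands are dark), and the number of the 22 genes whose LD peak is at ZT20 (colour) or ZT00 (grey) under 3 scalings (right). F. bidentis has 11 and F. robusta 7 genes at ZT20 with TMM factors.

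The days also differed. The maximum fell at ZT20 on LD1 in 20 genes in each species, and on LD2 in 14 genes in F. bidentis and 11 in F. robusta, with ZT00 highest in 6 and 9. Only 2 genes, AT5G14760 and AT3G29240, met the peak and ratio on each day in both species. The lowest hour was ZT08 for 11 F. bidentis and 16 F. robusta profiles. The ratio of highest to lowest hour had a median of 8.00 in F. bidentis (4.19 to 38.3) and 6.70 in F. robusta (4.18 to 33.9). Nearest inside the ratio were AT1G05000 at 4.18 in F. robusta and EXPA8 at 4.19 in F. bidentis, and nearest outside was AT3G47430, peroxin 11B, at 3.91 in F. robusta. The member of lowest level averaged 9.98 RPM over all time points (AT5G14650), and the gene nearest below the level, AT2G28200, a zinc finger gene, averaged 4.39 RPM.

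**Figure D2:**
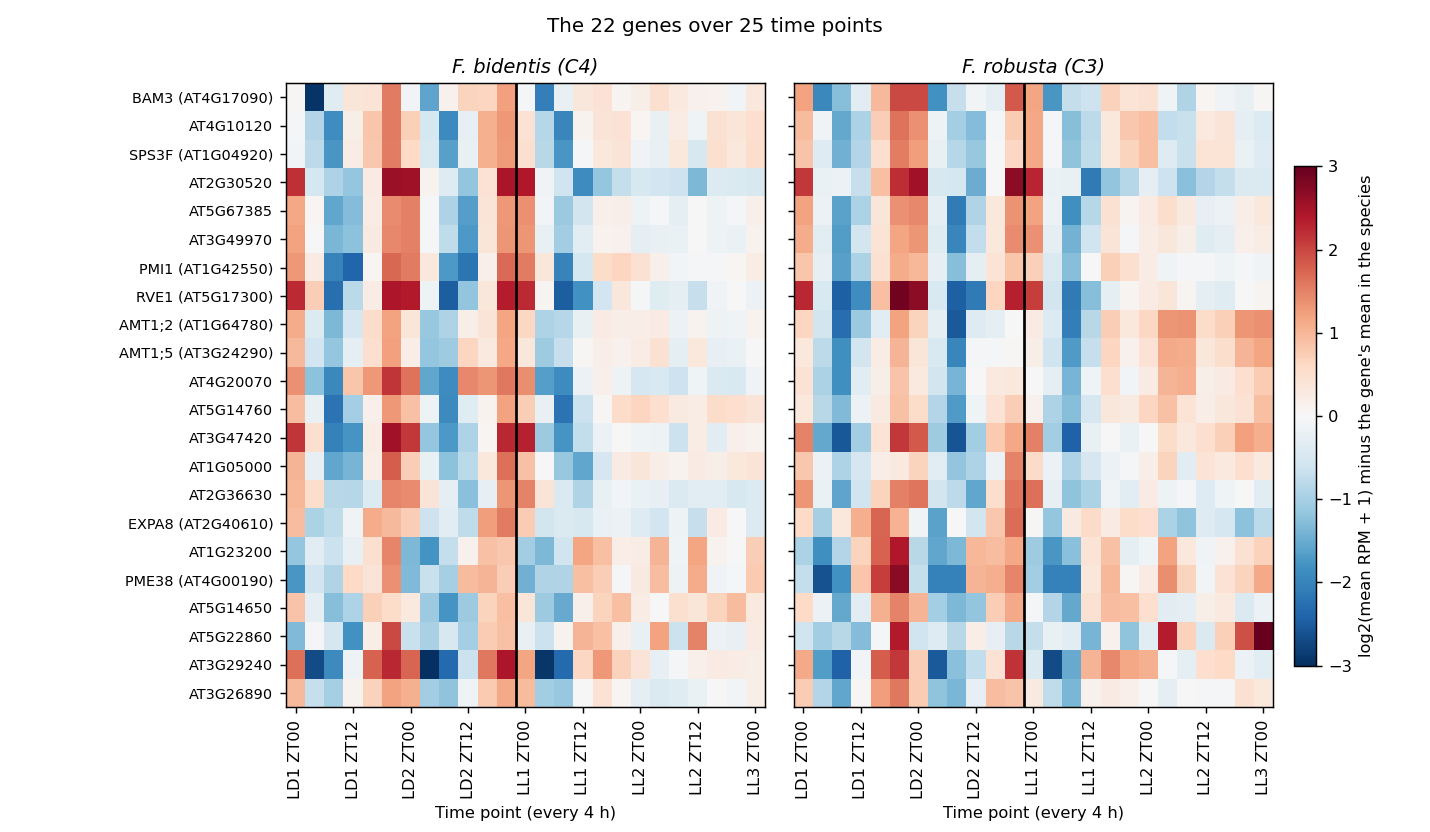
Levels of the 22 genes over 25 time points as log2(mean RPM + 1) minus the gene's mean in the species, F. bidentis left and F. robusta right. The black line marks the start of LL1; the dark-red columns of LD ZT20 and ZT00 are followed by paler columns after LL1 ZT00 in both species.

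Carbon metabolism is represented by 3 genes. BAM3 (AT4G17090, chloroplast beta-amylase in the table, where the name beta-amylase 3 stands at AT5G18670) is known as the main beta-amylase of starch breakdown in Arabidopsis leaves at night. At ZT20 of LD1 and LD2 it had 1716 and 1373 RPM in F. bidentis and 867 and 787 RPM in F. robusta, against 76.0 and 194.5 RPM at ZT04 in F. bidentis and 56.0 and 61.5 RPM at ZT04 in F. robusta. On LL1 it had 498.5, 737, 785.5 and 623 RPM at ZT08, ZT12, ZT16 and ZT20 in F. bidentis, and 132.5, 141.5, 349.5 and 289 RPM at the same hours in F. robusta. Its highest value of these hours was at ZT16 in both species, and neither species came near its dark ZT20 level.

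AT4G10120, a sucrose-phosphate synthase family gene, had 727.5 and 608 RPM at ZT20 and 67.5 and 65.0 RPM at ZT08 of the LD days in F. bidentis, and 374.5 and 203.5 RPM at ZT20 and 40.5 and 59.0 RPM at ZT08 in F. robusta. At LL1 ZT20 it had 335 RPM against 62.5 RPM at ZT08 in F. bidentis and 211 RPM against 48.5 RPM in F. robusta. SPS3F (AT1G04920, sucrose phosphate synthase 3F) ran parallel to it over the 25 means, with Pearson r of 0.993 in F. bidentis and 0.992 in F. robusta. These means include the 12 LD means of each species, whose averages chose both genes for the same peak hour. A high r between members was thus favoured by the choice. The means also share each time point's libraries, and whether related genes share reads in the authors' matching was not tested. AT4G10120 and SPS3F are among 4 genes that the table describes as sucrose-phosphate synthases, a family picked by its description after the values were seen.

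**Figure D3:**
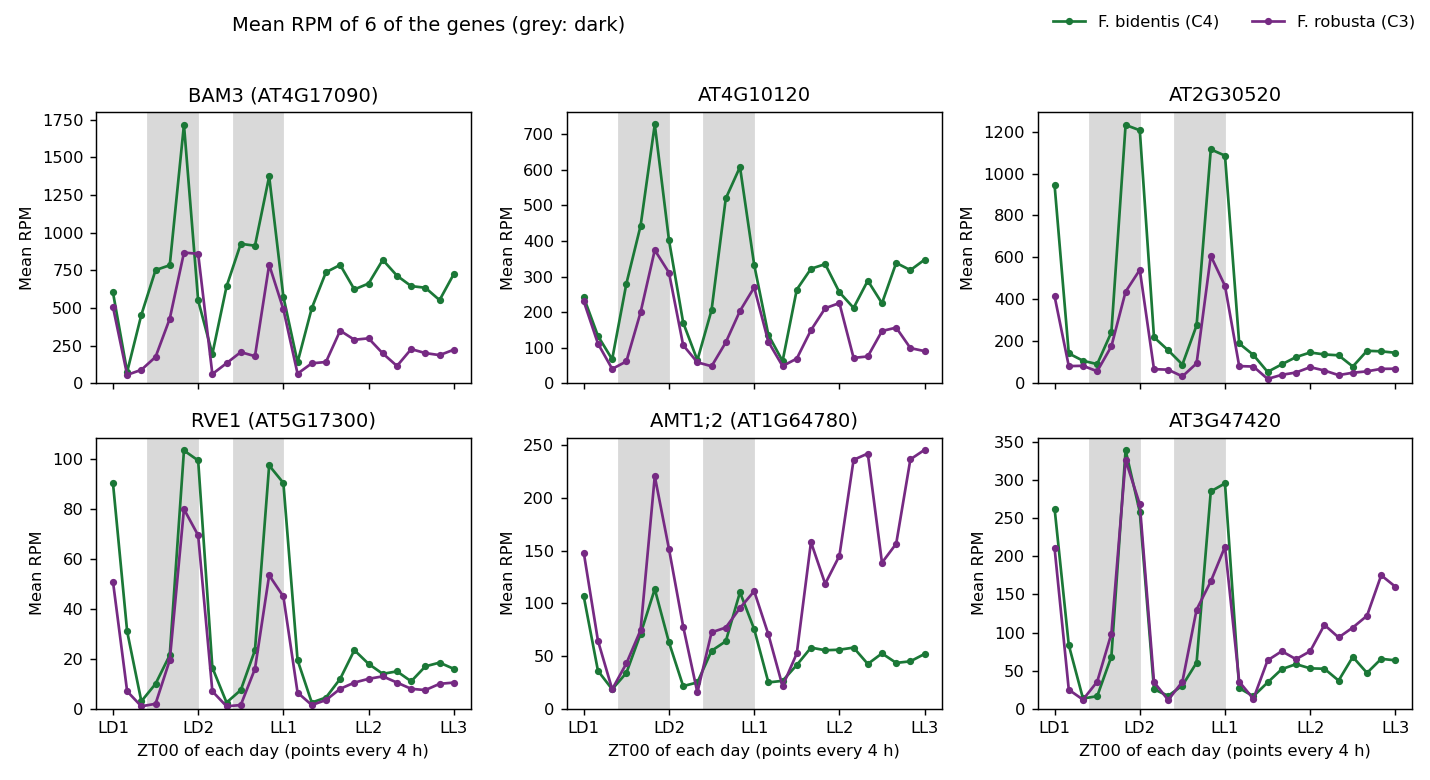
Mean RPM of 6 of the genes at 25 time points in both species (points joined by lines; grey bands are dark). AT2G30520 and RVE1 are high at LL1 ZT00 and stay low from LL1 ZT12 on, while AMT1;2 reaches 245.5 RPM at LL3 ZT00 in F. robusta.

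Light-related genes make up 4 of the 22. AT2G30520, an NPH3 family gene, had 1232 and 1115 RPM at LD ZT20 in F. bidentis and 436.5 and 607.5 RPM in F. robusta. In constant light the same hour had 125 and 152.5 RPM on LL1 and LL2 in F. bidentis and 51.5 and 69.0 RPM in F. robusta, so that LL1 ZT20 stood at 10.7% (F. bidentis) and 9.87% (F. robusta) of the LD ZT20 mean, the lowest share of the 22 in each species. Its last high value was 1085 RPM at LL1 ZT00 in F. bidentis and 464 RPM in F. robusta, right after the last dark period. No later LL value came near those levels: the highest from LL1 ZT04 on was 190 RPM in F. bidentis and 82.0 RPM in F. robusta.

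The other NPH3 family members, AT5G67385 and AT3G49970, kept more of their level in the first lit night and ran parallel to each other (r = 0.994 in F. bidentis and 0.986 in F. robusta over 25 means). Those means too include the LD values that chose both genes. AT5G67385 had 125 RPM at LL1 ZT20 against 50.5 RPM at ZT08 in F. bidentis, and 187 RPM against 48.5 RPM in F. robusta. PMI1 (AT1G42550, plastid movement impaired1, needed for chloroplast positioning in Arabidopsis) had 27.5 RPM against 3.50 RPM in F. bidentis and 69.5 RPM against 19.5 RPM in F. robusta. The table lists 17 NPH3 family genes at 5 RPM or more, of which 3 are among the 22.

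RVE1 (AT5G17300), a MYB-like factor related to the clock genes CCA1 and LHY that links the clock to auxin in Arabidopsis, had the highest ratio of highest to lowest LD hour in F. robusta, 33.9, and 27.1 in F. bidentis. At LL1 it had 23.5 RPM at ZT20 and 2.50 RPM at ZT08 in F. bidentis, and 10.5 RPM at ZT20 and 1.5 RPM at ZT08 in F. robusta. Its LD1 and LD2 ZT20 levels were 103.5 and 97.5 RPM in F. bidentis and 80.0 and 53.5 RPM in F. robusta. The LL1 ZT20 level was thus 23.4% of the LD ZT20 mean in F. bidentis and 15.7% in F. robusta.

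Nitrogen genes were the ammonium transporters AMT1;2 (AT1G64780) and AMT1;5 (AT3G24290), which carry ammonium into cells, AT4G20070, allantoate amidohydrolase of purine nitrogen recycling, and AT5G14760, L-aspartate oxidase at the first step of NAD synthesis. AMT1;2 had 113.5 and 110.5 RPM at LD ZT20 in F. bidentis and 220.5 and 95.5 RPM in F. robusta. On LL2 it had 45.0 RPM at ZT20 and 42.5 RPM at ZT08 in F. bidentis, and 236.5 and 242 RPM in F. robusta, so at LL2 ZT20 F. bidentis stood at 40.2% of its LD ZT20 mean and F. robusta at 149.7%. Those 2 F. robusta means are among 4 whose TMM factors stand apart from the other LL means of the species (1.19 to 1.29), and the part of that in these values was not tested.

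Among the other genes, AT3G47420 (phosphate starvation-induced gene 3) had 339 and 285 RPM at LD ZT20 in F. bidentis and 326 and 167 RPM in F. robusta, and at LL1 ZT20 58.5 RPM in F. bidentis and 65.0 RPM in F. robusta. AT3G29240, of unknown function, had the largest LD ratio in F. bidentis, 38.3. Cell wall genes were EXPA8 (AT2G40610, an expansin, which loosens walls), AT1G23200, PME38 (AT4G00190, a pectin methylesterase) and AT5G14650 (pectin lyase-like). AT1G23200 and PME38, both tied to pectin methylesterification by their descriptions, ran parallel over the 25 means with r of 0.902 (F. bidentis) and 0.978 (F. robusta). The LD means among the 25 chose both genes, so this r is a description. The remaining members were AT2G36630 (a sulfite exporter family gene), AT1G05000 (a phosphatase), AT5G22860 (a serine carboxypeptidase) and AT3G26890, which the table does not describe.

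In constant light the ZT20 level of most of these genes was below that of the LD nights. Those nights chose the genes, so the shares carry no test. At LL1 ZT20 the median member stood at 42.4% of its LD ZT20 mean in F. bidentis and 44.1% in F. robusta, beside 83.7% and 78.9% over the 13563 genes that averaged 1 RPM or more. LL1 ZT20 was under both LD ZT20 means in 21 of the 22 genes in F. bidentis and 18 in F. robusta, where all genes gave 55.1% and 57.0%. After TMM factors the member medians were 50.5% and 55.0% and those of all genes 99.8% and 99.0%. In whole leaves, fewer cells of a type and less RNA per cell cannot be told apart.

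The hours in constant light entered the choice of genes only through the mean level over all time points, so differences between them were tested. LL1 ZT08 is an ordinary daytime hour, and ZT08 was the lowest LD hour of many members, so the LL1 part of a ZT20 minus ZT08 difference sets the first lit night against such an hour. Over LL1 and LL2 together, no gene of 13563 had a ZT20 level different from ZT08 at an adjusted p under 0.05 in either species (limma, Benjamini-Hochberg over all genes; 0% called in each), and none had a difference between the species (0%). Without adjustment 232 genes in F. bidentis, 399 in F. robusta and 97 for the difference were under 0.05. These were 1.71%, 2.94% and 0.715% of all genes, each below the share expected where no gene differs. The fit pools LL1 and LL2, so differences between the days count as scatter. The absence of calls thus does not show that ZT20 and ZT08 were equal. Of the 22 genes, 21 had a fitted ZT20 above ZT08 in F. bidentis, beside 47.6% of all genes, with a median log2 difference of 0.75 beside 0.00. In F. robusta 22 did, beside 42.8% of all genes, with a median of 0.89 beside -0.04. The choice of genes favoured a low ZT08, and LL1 ZT08 is part of these fits, so this excess over all genes is no independent result. On LL2 alone, with no test, 19 of the 22 were higher at ZT20 in F. bidentis and 12 in F. robusta. All genes gave 42.4% and 38.5%, and the member medians were 0.17 and 0.06. A 24 h rhythm in constant light was called for 0 genes in F. bidentis and 0 in F. robusta (0% each; 2612 and 1788 genes under an unadjusted 0.05, among them 12 and 11 of the 22). The 13 LL means of each rhythm fit include LL1 ZT00 to ZT08, which fall right after the dark or in ordinary daytime. At those hours the members still followed the LD pattern that chose them. The unadjusted counts therefore do not show a rhythm that persists without a dark period. P-values here measure the scatter of time-point means around each model, not that between plants.

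Taking LL1 alone, a choice made after the values were seen, both species were fitted together with hour and species as additive terms (12 means, 5 residual degrees of freedom). ZT20 was then higher than ZT08 in 12 of the 22 genes and lower in 0, where 4.54% of all genes were called, 2.03% higher and 2.51% lower (limma, adjusted p under 0.05). LL1 ZT08 was still an ordinary daytime hour, and ZT08 was the lowest LD hour for 11 F. bidentis and 16 F. robusta profiles. The choice of genes thus favoured a low ZT08, so the direction and the excess over all genes are no independent result. RVE1 was 2.50 higher on the log2 scale (SE 0.27, adjusted p = 0.00269), AT5G14650 was 2.43 higher (SE 0.21, adjusted p = 0.00101) and AT5G67385 was 1.61 higher (SE 0.22, adjusted p = 0.00587). AT4G10120 was 2.25 higher (SE 0.36, adjusted p = 0.00995), and SPS3F, PMI1, AMT1;2, AT3G26890, AT3G29240, AT3G47420, AT3G49970 and AT5G14760 were the other called genes. Each of these 12 was higher at ZT20 than at ZT08 in both species. The 12 calls rest on few means: leaving out F. bidentis LL1 ZT08 left 7, F. bidentis LL1 ZT20 left 3, F. robusta LL1 ZT08 left 8 and F. robusta LL1 ZT20 left 2, and with TMM factors 14 genes were called.

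BAM3 (log2 difference 0.72, SE 0.41, adjusted p = 0.373), EXPA8 (0.26, SE 0.41, adjusted p = 0.796) and AT2G30520 (-0.37, SE 0.18, adjusted p = 0.287) did not pass. With no test, LL1 ZT20 was at least 2-fold over ZT08 (RPM + 1) in 14 of the 22 genes in F. bidentis, in 16 in F. robusta and in 13 in both species, as in 3.51%, 3.92% and 1.45% of all genes. The choice of genes favoured a low ZT08 here as well. On LL2 no gene passed in the same fit (0%; 176 under an unadjusted 0.05, 2 of them among the 22), and the range of the day narrowed: the median highest-to-lowest ratio (RPM + 1) was 5.36 on LL1 and 1.57 on LL2 in F. bidentis, and 5.89 on LL1 and 1.94 on LL2 in F. robusta. The LL1 ratio includes ZT00 right after the dark, and ZT04 and ZT08 in ordinary daytime, where many members had their lowest LD hour. No ratio of all genes was set beside these medians, so whether all genes narrowed alike was not tested.

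**Figure D4:**
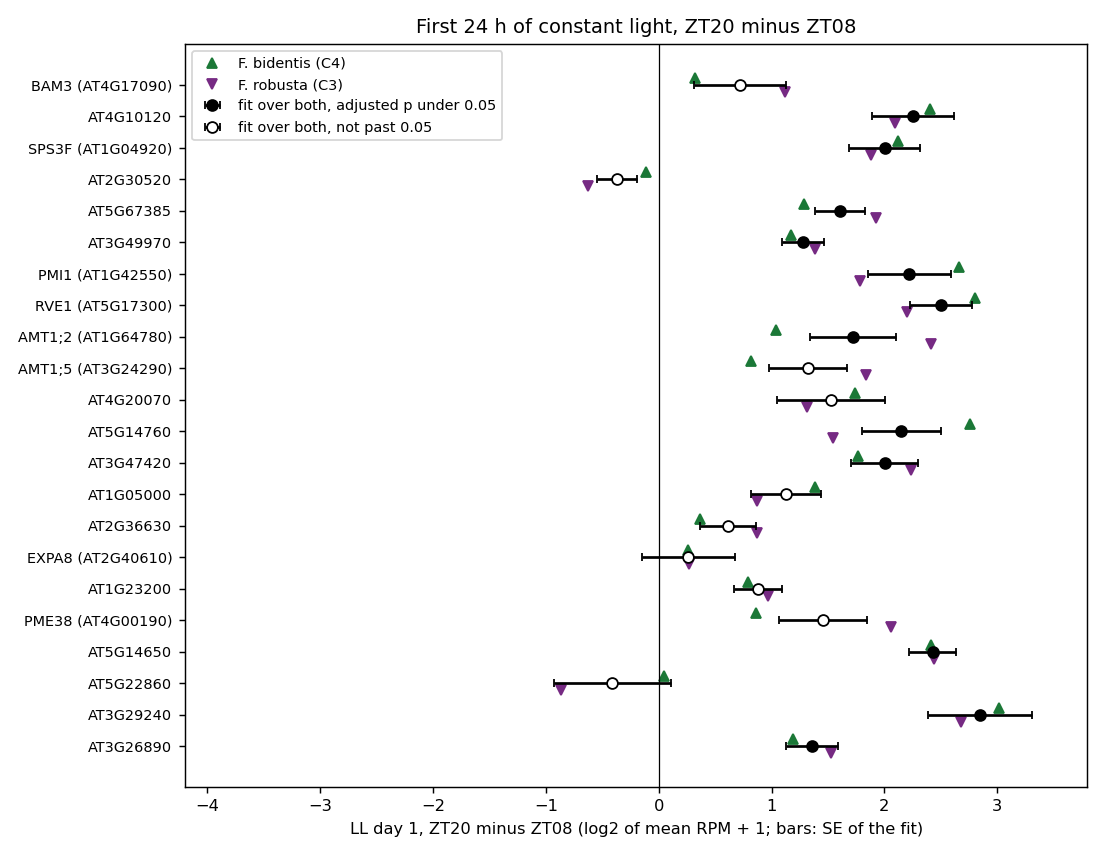
Log2 difference between LL1 ZT20 and LL1 ZT08 of each gene, in F. bidentis (upward triangles) and F. robusta (downward triangles), with the fit over both species (circles, bars are SE; filled where the adjusted p is under 0.05). Filled circles mark 12 genes, all to the right of 0.

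The hour of the highest value after LL1 ZT08 moved with the scaling. Between LL1 ZT08 and LL2 ZT00, 10 genes were highest at ZT20 in F. bidentis and 0 in F. robusta with deposited RPM (8.01% and 9.44% of all genes), while 14 were highest at ZT16 in F. robusta (40.0% of all genes). LL2 ZT00 was highest in 4 genes in F. bidentis and 6 in F. robusta, beside 7.58% and 6.25% of all genes. With TMM factors ZT20 was highest for 10 F. bidentis and 5 F. robusta profiles, and LL2 ZT00 for 14 in F. robusta. The shares of all genes were then 18.7% (F. bidentis) and 19% (F. robusta) at ZT20, and 18.4% at LL2 ZT00 in F. robusta, so the 5 F. robusta profiles at ZT20 are near the background. No species difference in the lit-night hour is therefore drawn from these data.

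Between species, levels in constant light were compared at 13 matched time points. The fit treats these as independent pairs, so its SE and p-values measure scatter over time points, not between plants. F. bidentis was higher in 12 of the 22 genes and lower in 8, where 26% of all genes were higher and 41.8% lower (limma with time point as a block, adjusted p under 0.05; 67.8% called in either direction). The largest difference was in AT1G05000, with 10.5, 38.0 and 61.0 RPM (lowest, median, highest) in F. bidentis against 2.00, 5.50 and 8.00 RPM in F. robusta, ranges that do not overlap (log2 difference 2.50, SE 0.11, adjusted p = 6.35e-13). BAM3 was 1.55 higher in F. bidentis (SE 0.15, adjusted p = 6.97e-08), with 139.5, 645 and 819 RPM in F. bidentis against 64.0, 200.5 and 491.5 RPM in F. robusta, ranges that overlap. The overlap lay in the ordinary hours of LL1. From LL1 ZT12 on, BAM3 had 552 to 819 RPM in F. bidentis and 115 to 349.5 RPM in F. robusta, with no overlap. AT2G30520 was 1.15 higher (SE 0.09, adjusted p = 1.17e-09) and AT4G10120 was 1.04 higher (SE 0.17, adjusted p = 2.75e-05).

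Lower in F. bidentis were both ammonium transporters, AMT1;5 by a log2 difference of -1.73 (SE 0.18, adjusted p = 1.4e-07) and AMT1;2 by -1.40 (SE 0.20, adjusted p = 8.62e-06; -1.01 without the 4 F. robusta means, limma adjusted p = 0.000439), with PMI1 by -1.35 (SE 0.12, adjusted p = 8.46e-09) and AT3G29240 by -1.25 (SE 0.16, adjusted p = 1.28e-06). Genes of 1 family went both ways: AT5G67385 and AT3G49970 were lower in F. bidentis and AT2G30520 higher. TMM factors moved the median of all genes by 0.12 and raised the share of higher calls among all called genes to 48.5%, beside 38.3% with deposited RPM, and gave 13 of the 22 higher and 8 lower. Reads of both species were assigned to Arabidopsis identifiers, and how well each species matches was not tested.

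**Figure D5:**
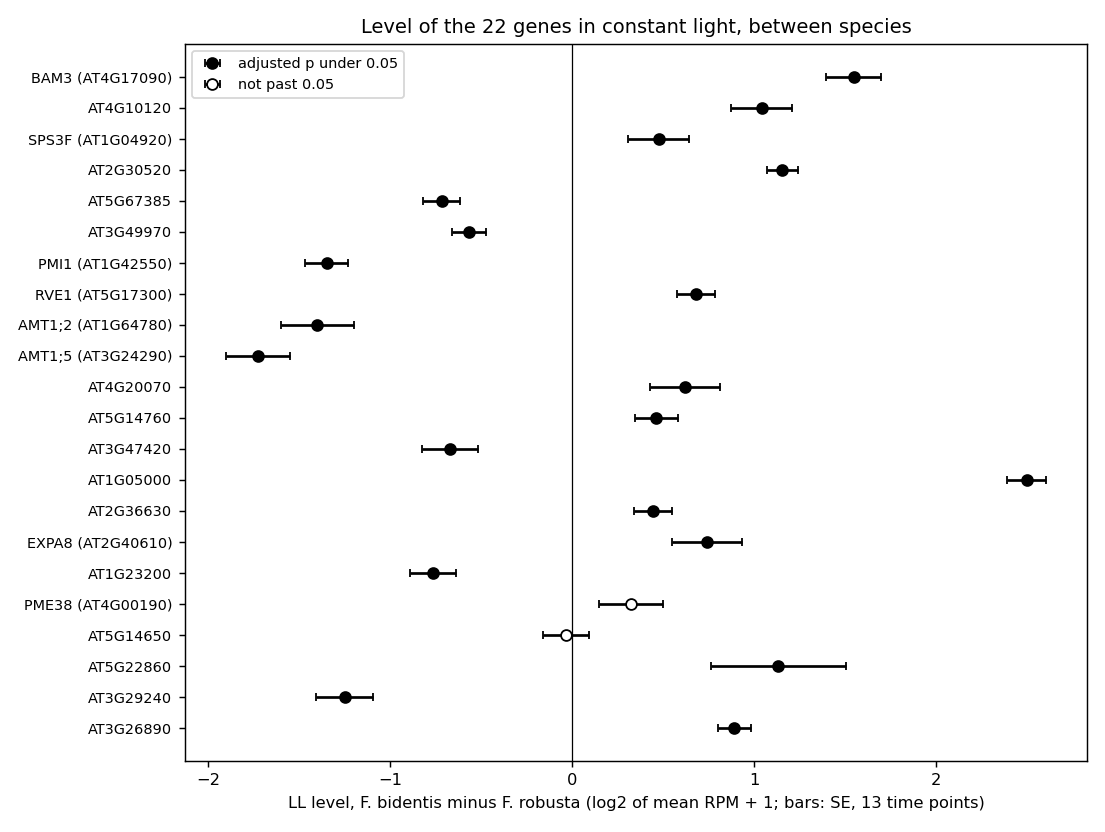
Log2 difference in level between F. bidentis and F. robusta over 13 LL time points for each gene (bars are SE; filled where the adjusted p is under 0.05). AT1G05000 is farthest to the right at 2.50 and AMT1;5 farthest to the left at -1.73.

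Genes outside the 22 from related pathways were read in the same LL1 fit, in which 2.03% of all genes were higher and 2.51% lower. Of 14 other starch genes, 2 were higher at ZT20 than at ZT08 (ISA3, a debranching enzyme, and BAM5, a beta-amylase) and 2 lower (DPE2, which uses maltose in the cytosol, and PHS2, a phosphorylase), with a median log2 difference of -0.03 beside -0.04 over all genes. Of 3 reveille genes other than RVE1, 1 was higher, RVE2 (1.45, SE 0.26, adjusted p = 0.0153). Of 21 core clock genes 0 were higher and 7 lower, GI, FKF1, PRR9, LUX, PRR7, PRR5 and PRR3. Of 12 photoreceptor and photolyase genes 2 were higher (the photolyases UVR2 and UVR3) and 2 lower, CRY2 and the phototropin PHOT1 (-1.39, SE 0.23, adjusted p = 0.00989). Of 8 nitrate and sulfate genes 0 passed in either direction. Leaf marker genes, of which 3 of 6 were measured, summed to 16515 to 27896 RPM in F. bidentis and 36475 to 93002 RPM in F. robusta over the LL means, and their part in the results was not tested.

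Genes outside the 22 with the most similar profile to their mean over the 26 LL means were AT2G22450 (riboflavin biosynthesis, r = 0.932) and AT5G64300 (GTP cyclohydrolase II, r = 0.925), a description across time points that share libraries within each column. In LD both were highest at ZT12 in F. bidentis and at ZT20 in F. robusta.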

How the data were processed

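Leaf RNA from 100 libraries was sequenced as single reads of 100 bp; the submitters' processing notes name CASAVA and TAIR10 without roles, and no source used here gives the aligner. The deposited RPM values (reads scaled to a common library total) were averaged by the authors within each time point, in 50 columns that sum to between 999417.5 and 1000090. Another 200 columns hold counts and RPM of single libraries per the file headers, under numbers that match no sample title. They were not used, so depth per library is not given here. Tests used limma 3.58.1 in R 4.3.3 on log2(mean RPM + 1), with the trend and robust options of eBayes, for the 13563 genes averaging 1 RPM or more, with p-values adjusted over all of them by the Benjamini-Hochberg method. LL hours were fitted as species-by-hour groups (14 residual degrees of freedom), levels as pairs by time point, and rhythms as a cosine and sine of 24 h beside a linear trend. TMM factors were computed on the RPM values by the published trimming rule. Fits were also run on simulated data with independent noise and no difference between LL1 and LL2. The outcome is not given here, and that run does not show how the fits perform where the days differ. The genes, lists and families were chosen with earlier results of these data known. Named genes are members standing in a pathway list, those of largest LD ratio, level, LL share or smallest adjusted p, the genes nearest each threshold, parallel pairs and the closest profiles; others were named to account for every member. Alternatives were TMM factors, other pseudocounts, filters, thresholds and single LD days, LL from ZT12 of day 1, no trend, and the omission of single means.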

Additional observations from a re-analysis of the deposited data

Results flagged for a closer look

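AT5G22860, a serine carboxypeptidase gene, went apart between the species in the first lit night. Its log2 difference between LL1 ZT20 and LL1 ZT08 was 0.0431 in F. bidentis, with 50 RPM at ZT20 and 48.5 RPM at ZT08, and -0.87 in F. robusta, with 7.50 RPM at ZT20 and 14.5 RPM at ZT08. The difference between the species was not tested for LL1 alone, and each value is 1 time-point mean.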

How the results depend on the processing

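The choice of genes depended most on the settings. The rule kept 3 genes with TMM factors and 3 with a median scaling, 50 on LD1 alone (19 of the 22 among them), 23 on LD2 alone (5 of the 22), 2 on LD1 and LD2 each, 113 at a ratio of 2 and 5 at a ratio of 8, beside 22. In F. robusta LL ZT20 minus ZT08 called 2 genes of all with a pseudocount of 0.1, beside 0. Omitting single means gave 2 to 8 members and 52 to 221 genes in all for LL1 ZT20 minus ZT08, beside 12 and 616; 0 to 3 genes for LL ZT20 minus ZT08 in F. bidentis; and 0 to 2 for LL2. An omission on LL1 leaves an hour with 1 mean, assumed to vary like the others. AT5G14650 reversed in level between species, at 0.0872 with TMM factors and 0.0118 from LL1 ZT12 on, beside -0.0328; omissions of single time points gave -0.1303 to 0.0111, above 0 without LL1 ZT04, ZT12 or ZT16 or LL2 ZT00. EXPA8 on LL1 ranged over single omissions from -0.0088 to 0.5356, below 0 without F. bidentis ZT08 or F. robusta ZT20. Without 4 F. robusta LL means of unusual composition SPS3F (0.16, adjusted p = 0.387, limma) and EXPA8 (0.44, adjusted p = 0.072, limma) were no longer called in level. The causes were not tested. The LL1 and LL2 fits, the median scaling and the omission of those 4 means were chosen after seeing the data. No paired analysis was possible by replicate number, because the columns used hold means over replicates; the pairs in the level comparison are time points. Depth per library is not given here, and the LL1 test has 2 means an hour.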
